A study of Mus musculus with 1119 samples.

Results

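The cells described are dermal papilla cells of hair follicles in anagen VI, the full growth phase of the hair cycle, from mouse back skin at postnatal day 30. They were taken as the cells that the authors' deposited annotation assigns to the anagen VI dermal papilla, 30.1% of the 1119 cells of the series, on 4 plates named DP2, DP3, DP5 and DP6. Levels are in TPM, the share of a cell's transcripts that a gene accounts for, scaled to a fixed total. Of the annotated cells, 73, 85, 74 and 72 on the 4 plates, or 90.2%, had at least 2000 genes at TPM 1 or more and were kept. The other 33 held at most 24 such genes, and the kept cell with the fewest held 2693, so no cell lay near that limit. Each cell was sorted into a well and its full-length cDNA was sequenced on its own by Smart-seq2. The dermal papilla cells came from male K14-H2BGFP;LEF1-RFP mice, in which a keratin 14 promoter drives green nuclei in the epithelium and a red reporter follows Lef1, and were sorted on GFP, RFP, integrin α9 and CD117. They were compared with hair bulb cells of the same day, of which all but 5 were kept (98.7%) and which the authors annotate as anagen VI matrix cells, the transit-amplifying progenitors that build the hair. Most of the hair bulb cells also carried 3 or more melanocyte genes, and smaller parts carried markers of other cell types, as described below. The hair bulb cells came from Lhx2-GFP mice on a CD1 background, of mixed sex, and were sorted on Pcadherin, CD34 and Sca-1, on integrin α6 and integrin b1, and on GFP. Whether a sorting marker was used to keep or to discard cells is not given in the sources used here. Lef1 and Itga9 (integrin α9) were part of the sort, so their levels check the gate and are not findings. The same holds for the genes of the other sorting markers, among them Kit (CD117), Cdh3 (P-cadherin), Itga6 and Itgb1. With a keratin 14 reporter and CD117 in the sort, contrasts in epithelial, keratinocyte and melanocyte genes are tied to the gates as well. They are given as a description. The number of mice is not given either, so each group counts as 1 sample, and no test, SE or p-value is possible. Strain, sex, sorting gate, plate and deposited table all differ between the 2 groups and cannot be told apart from cell type.

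The dermal papilla is a small cluster of specialised fibroblasts enclosed by the matrix at the base of the growing follicle. It makes secreted signals of the Wnt, bone morphogenetic protein (BMP), activin and fibroblast growth factor (FGF) families, together with proteins that block or sharpen them, and the overlying progenitors divide and choose their fate next to it. R-spondins, secreted proteins that bind Lgr receptors and strengthen Wnt signals, are among its best known products in growing follicles, and Corin, a membrane serine protease, is a classical marker of its cells.

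The hair bulb cells lay on 5 plates of 71 to 81 kept cells. Plates are a technical division of 1 sample, and their spread is given below as such. The median dermal papilla cell held 5888.5 genes at TPM 1 or more and the median hair bulb cell 7413. Spike-in RNA made up a median 8.46% of the TPM total in dermal papilla cells and 0.710% in hair bulb cells, and ribosomal RNA 68.2% and 76.4%. Hprt, 1 of 12 housekeeping genes listed and chosen after its values were seen, was at TPM 1 or more in 36.5% of dermal papilla cells against 86% of hair bulb cells, so a gene listed at 0 in a single cell need not be silent there. TPM carries no read number, so the depth behind each value is unknown, and the exact intervals given for shares of cells cover counting of cells only.

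All 7 marker genes were high in the dermal papilla cells and low or listed at 0 in most hair bulb cells. Inhba, which encodes the subunit of activin A, had plate means of 1024, 947, 983 and 758 TPM on the 4 plates. Single dermal papilla cells ranged from 0 to 3057 TPM with a median of 881, and the 5 hair bulb plates had means of 0.394 to 4.41 TPM. The plates of the 2 groups did not overlap. Inhba was seen, meaning at TPM 1 or more, in 98.7% of dermal papilla cells (exact 95% interval 96.7 to 99.6%) and in 5.54% of hair bulb cells.

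Wif1, which encodes a secreted protein that binds Wnts, had a median of 655 TPM and a highest cell of 4470, with plate means of 704 to 1001. It was the marker most often seen in the hair bulb, in 25.9% of cells at a mean of 6.75 TPM. Rspo4, one of the R-spondins, had a median of 603 TPM and plate means of 542.5 to 738, while hair bulb plates stayed at 0 to 0.0697 TPM. Sostdc1, an inhibitor of both Wnt and BMP signals, had a median of 460 TPM and was seen in 98% of dermal papilla cells and 5.54% of hair bulb cells. Corin had a median of 581 TPM and was seen in 91.8% against 0.792%. The platelet-derived growth factor receptor Pdgfra, a general fibroblast receptor, was seen in 99% at a median of 89.4 TPM. Fgf10, a mesenchymal FGF that signals to epithelium, was the lowest of the 7, with a median of 35.5 TPM, and was seen in 89.5% of dermal papilla cells and 0.264% of hair bulb cells.

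Per cell, 81.6% of the dermal papilla cells (exact 95% interval 76.8 to 85.8%) carried all 7 markers and 35 cells carried 6. No dermal papilla cell lacked all of them. Among the hair bulb cells, 61.5% carried none, 34.8% carried 1, and the highest cell carried 4. The annotation and the markers thus went together in nearly all cells. The markers define the cell type and are no finding about it.

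**Figure D1:**
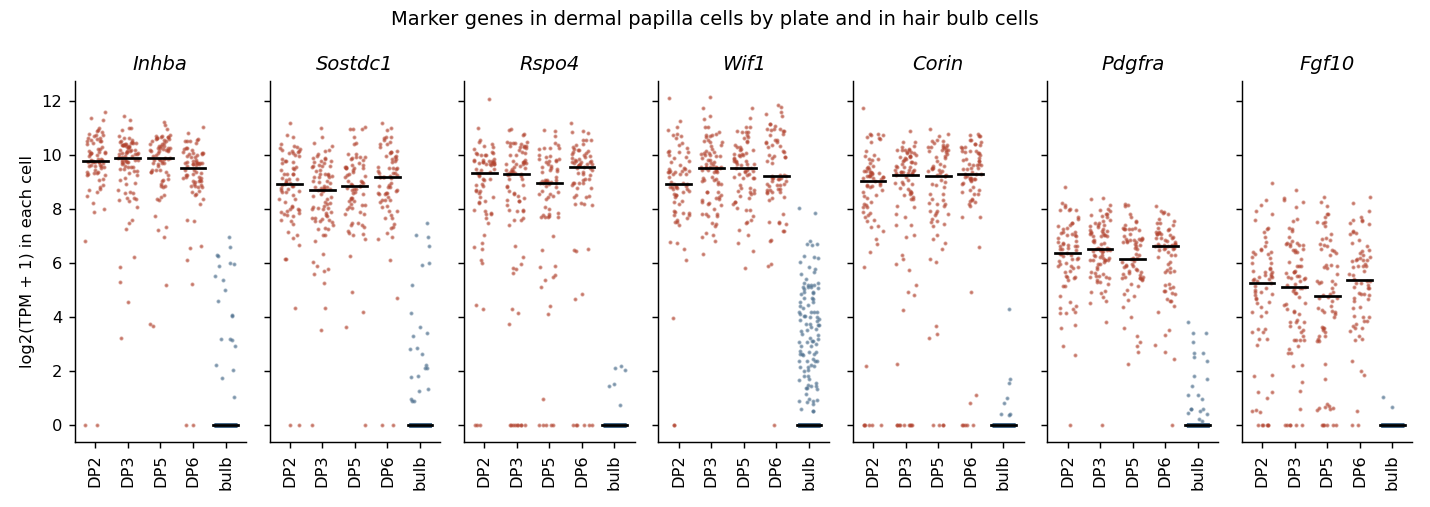
Level of the 7 marker genes in every kept cell, as log2(TPM + 1), for dermal papilla plates DP2, DP3, DP5 and DP6 (red) and for all hair bulb cells (blue). Each point is a cell and each black line a median; the medians of Inhba, Sostdc1, Rspo4, Wif1 and Corin lie high on every dermal papilla plate, and a small set of cells sits at 0 for Rspo4, Corin and Fgf10.

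Over all genes, differences are given as the mean log2(TPM + 1) of dermal papilla cells minus that of hair bulb cells, called the log2 difference below. It understates the change of genes near 0. The genes considered were the 10498 that reached TPM 1 in 30% or more of one group or the other. Among them, 1347 (12.8%) were higher in dermal papilla cells by 1 or more and 2461 (23.4%) were lower by 1 or more. These shares of all genes considered belong beside each list count below, where shares are over the members that passed this filter. A gene that passed through 1 group alone tends to be higher in that group, so the direction of such members was largely set by the filter. Medians over all members of a list are not filtered in this way. The median gene was lower by 0.41 on the log2 scale, alongside the lower number of genes per cell. Measured from that median gene, the split turned to 2015 higher and 1307 lower, or 60.7% of the calls higher in place of 35.4%. Rescaling TPM without spike-in, ribosomal and mitochondrial rows moved the median gene to -0.77. Small differences in either direction therefore depend on the scaling, and this holds for every count at a limit of 1 and for single values near or below 1 given below. Of the 12 housekeeping genes, 6 were lower by 1 or more and 1 higher, and their median was -0.97. Among the 1347 higher and 2461 lower genes, 1343 and 2460 kept their sign on every plate of either group against all cells of the other. Keeping a sign on every plate is therefore not particular to the genes named below. The share of all genes whose plate means do not overlap between groups was not counted.

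Leaving out predicted models and pseudogenes here as well as below, the gene with the largest log2 difference was Serpine2, a secreted inhibitor of serine proteases such as thrombin. Its plate means were 2012, 2109, 1722 and 1738 TPM, its median cell held 1713 TPM, and hair bulb plates had means of 3.61 to 17.9. The log2 difference was 9.64. Apod, a secreted lipid carrier, followed among these named genes at 9.45 and was seen in every dermal papilla cell, from 48.9 TPM in the lowest cell through a median of 881 to 7426 TPM in the highest. Col3a1, the chain of fibrillar collagen type III, was likewise seen in every one of them, with a median of 1325 TPM and a log2 difference of 9.11. Enpp2 encodes autotaxin, the enzyme that makes lysophosphatidic acid. It was the most even of the leading genes across plates, from 527 TPM on plate DP5 to 558 on DP3, and had a log2 difference of 8.65. The lysophosphatidic acid receptor Lpar1 was seen in 96.7% of the same cells at a mean of 60.8 TPM and in 6.07% of hair bulb cells.

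The other genes described are from the 20 largest positive differences that remain without predicted models. Among the models left out, AC125167.1 (9.60) and Gm27820 (7.16) had log2 differences within the range of these. Extracellular matrix genes were Col6a3 (a collagen VI chain, log2 difference 8.48), Lama2 (a laminin chain, 6.76), Mmp2 (a matrix metalloproteinase, 7.83) and Pcolce, an enhancer of collagen processing, at 7.69. Complement and its regulators gave Masp1 at 7.76 and Serping1, the C1 inhibitor, at 7.32. Crabp1, which binds retinoic acid in the cytoplasm, stood at 7.35 with a mean of 687 TPM, and the intermediate filament gene Vim, typical of mesenchymal cells, at 6.95 with 514 TPM. Scara5, a scavenger receptor for ferritin, was at 6.65 and was seen in no hair bulb cell at TPM 1, which allows a share of up to 0.969% at the exact 95% limit. Nkd2, an intracellular antagonist that Wnt signalling itself induces, was at 6.61. Chodl, which encodes the membrane protein chondrolectin and also belongs to a list of muscle progenitor genes, was at 6.97 and was seen in 91.8% of dermal papilla cells.

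**Figure D2:**
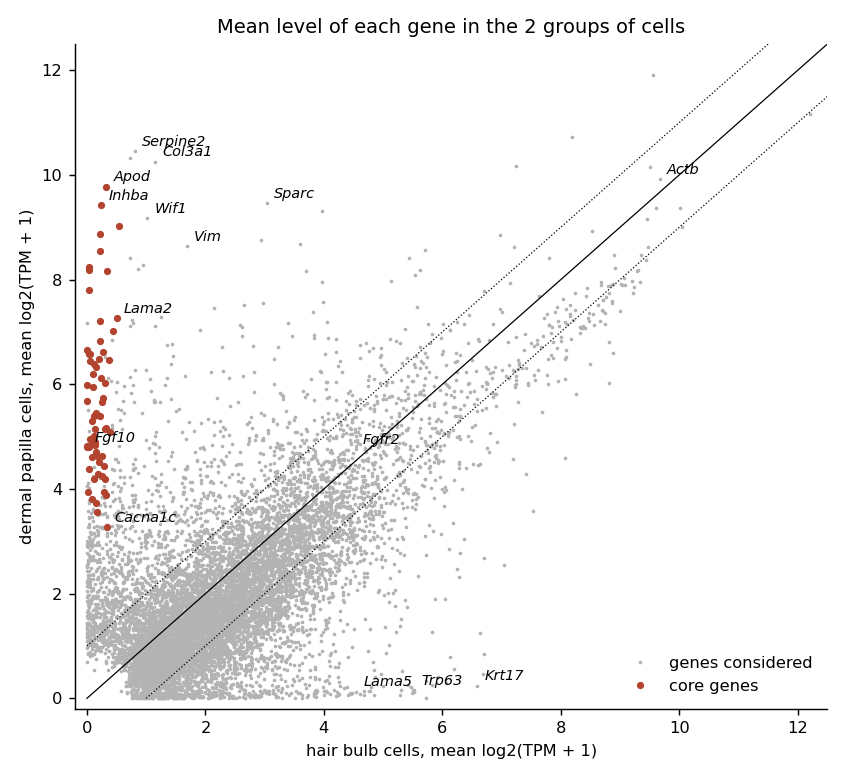
Mean log2(TPM + 1) of each gene considered, in hair bulb cells (horizontal) and dermal papilla cells (vertical); red points are the 66 core genes, the solid line marks equal means and the dotted lines a difference of 1. Core genes lie along the left edge, from Cacna1c at a log2 difference of 2.93 to Apod at 9.45, while Krt17 and Trp63 lie along the lower edge.

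A stricter set, called core genes here, held those at TPM 1 or more in at least 80% of dermal papilla cells on each of the 4 plates and in under 10% of all hair bulb cells. Leaving out predicted models and pseudogenes, 66 of 9505 genes (0.694%) met it. Since the rule used these same cells, its members are a description. Itga9, which was part of the sort, is among them. The 15 with the highest mean log2 level were Apod, Inhba, Enpp2, Col6a3, Sostdc1, Rspo4, Corin, Mmp2, Masp1, Chodl, Lama2, Scara5, Nkd2, Col15a1 and Crym. Col15a1 encodes a collagen of the zone under basement membranes and Crym the thyroid hormone binding protein μ-crystallin. Secreted signals and inhibitors in the set were Rspo1, Rspo4, Inhba, Bmp3, Fgf7, Fgf10, Slit2, Sostdc1, Dkk2 and Hhip. Receptors were Pdgfra, the leptin receptor Lepr, the prostaglandin E receptor Ptger3, the prolactin receptor Prlr, Lpar1 and the netrin receptor Unc5c. Transcription factors were Alx4, Shox2, Ebf1, Nfatc4 and Rorb. The set also held F5, coagulation factor V, which was seen in 92.4% of dermal papilla cells at a mean of 110 TPM and listed at 0 in every hair bulb cell. It held 2 voltage-gated calcium channel genes, Cacna1g and Cacna1c, at means of 36.3 and 15 TPM.

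The rule asked for each plate, so evenness across plates is in part built into the set. The ratio of the highest to the lowest plate mean had a median of 1.32 and stayed below 2 for every core gene, with the highest value, 1.79, for the nuclear receptor gene Rorb. Among the leading genes, Scara5 (ratio 1.598) and Col3a1 (ratio 1.59) varied most, both highest on plate DP3. The 80% and 10% limits also set most of the distance between the groups in core genes per cell, which is given as a description. The median dermal papilla cell carried 63 of the 66 core genes on each of the 4 plates, and the lowest cell carried 32. The median hair bulb cell carried 1 and the highest 36, so the ranges met only through the 4 dermal papilla cells with under 40 core genes and 2 hair bulb cells.

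**Figure D3:**
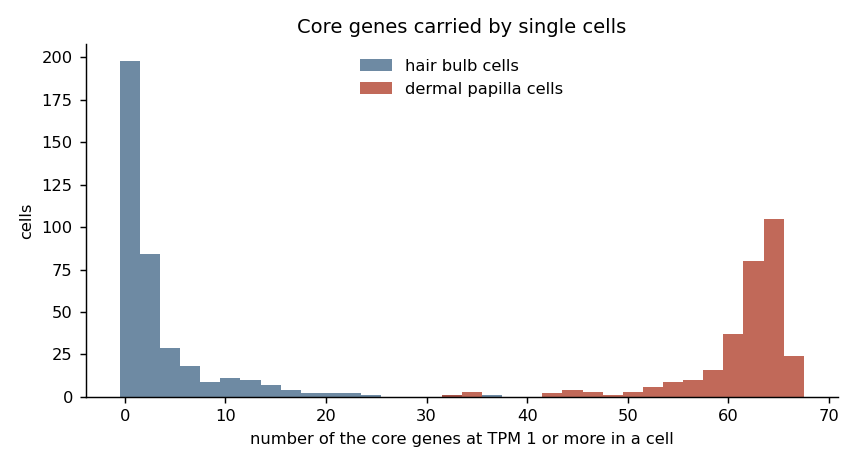
Number of the 66 core genes at TPM 1 or more in each kept cell, for hair bulb cells (blue) and dermal papilla cells (red), as a histogram of cells. The medians are 1 and 63, and the cells of the 2 groups lie at opposite ends of the axis with few between.

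Of the 66 core genes, 44 had an entry in the RefSeq promoter table of build GRCm38.p6. A set of 5 short motifs was searched on both strands of the 300-base windows. Some genes have several promoters, and the 44 genes had 57 in all, so shares are per promoter on both sides. The GC box GGGCGG was in 25 of the 57 promoters (43.9%) against 35.7% of all promoters, and the TATA box TATAAA was in 6 (10.5%) against 13.6%. The TCF/LEF forms CTTTGAA and CTTTGAT were in 4 and 2 of them (7.02% and 3.51%) against 5.14% and 3.73% of all promoters, and the AP-1 site TGACTCA was in 2 (3.51%) against 5.20%. These are matches of letters and no evidence of a site in use. The windows of 5 core signals and inhibitors are shown so that a reader can see where these letters lie in genes that are on together in these cells. Each gives the 150 bases before the annotated start, 5′ to 3′ along the gene, with TATAAA and GGGCGG in capitals on either strand.
Inhba: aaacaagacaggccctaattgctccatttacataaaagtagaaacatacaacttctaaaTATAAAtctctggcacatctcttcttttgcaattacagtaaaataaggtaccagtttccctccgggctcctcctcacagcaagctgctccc
Dkk2: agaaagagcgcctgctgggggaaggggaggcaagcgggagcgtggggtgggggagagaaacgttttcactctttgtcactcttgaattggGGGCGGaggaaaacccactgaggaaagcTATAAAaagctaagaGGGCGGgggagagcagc
Slit2: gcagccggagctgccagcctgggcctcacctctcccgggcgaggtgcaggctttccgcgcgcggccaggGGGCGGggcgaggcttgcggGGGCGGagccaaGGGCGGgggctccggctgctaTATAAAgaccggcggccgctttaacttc
Rspo4: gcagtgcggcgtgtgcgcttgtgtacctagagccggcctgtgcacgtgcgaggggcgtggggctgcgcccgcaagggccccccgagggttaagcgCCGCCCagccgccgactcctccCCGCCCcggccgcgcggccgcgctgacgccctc
Hhip: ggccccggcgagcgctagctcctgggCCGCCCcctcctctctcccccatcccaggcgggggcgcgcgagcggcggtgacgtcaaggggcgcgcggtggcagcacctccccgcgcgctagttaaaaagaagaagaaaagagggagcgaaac
The Inhba window (chr13:16011701-16011850, plus strand) holds TATAAA 91 bases before the start. In Dkk2 (chr3:132085142-132085291, plus strand) and Slit2 (chr5:47983005-47983154, plus strand) it begins 32 and 28 bases before the start, and both windows also hold GGGCGG, at 2 and 3 places. The Rspo4 window (chr2:151842777-151842926, plus strand) has no TATAAA and holds GGGCGG on the opposite strand at 2 places, and the Hhip window (chr8:80058009-80058158, minus strand) at 1. Hhip encodes a membrane and secreted protein that binds and blocks hedgehog ligands.

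All 4 R-spondin genes were on in the dermal papilla cells. Plate means ran from 124.3 to 167.8 TPM for Rspo1, 44.5 to 56.3 for Rspo2, 83.2 to 110 for Rspo3 and 542.5 to 738 for Rspo4. Rspo4 was thus the highest of them on every plate and Rspo2 the lowest, and no plate range of one touched that of its neighbour in this order. They were seen in 98.7%, 75.0%, 78.6% and 92.1% of the cells. Per cell, 69.1% carried all 4 and 3 cells carried none, while 97.1% of hair bulb cells carried none and the other 11 carried 1. Rspo1 was therefore the most regular and Rspo4 the most abundant.

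The Wnt ligands themselves were different. Of 17 genes in the list of Wnt ligands and R-spondins, 10 passed the filter, 5 were higher by 1 or more and 3 lower, where 12.8% and 23.4% of all genes considered were. The fifth higher one, Ndp (norrin, a Wnt-like ligand), was seen in 44.1% of dermal papilla cells. The median over all 17 was 0.01. Wnt5a, a ligand of mostly β-catenin-independent signalling, had a mean of 16.1 TPM in dermal papilla cells and 21.6 TPM in hair bulb cells, and the plates of the 2 groups overlapped. The Wnt genes lower by 1 or more, named after their values were seen, were 3: Wnt4 was seen in 9.87% of them against 80.7% of hair bulb cells, Wnt3 in 2.63% against 54.4% and Wnt10a in 5.26% against 50.1%.

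Inhibitors of Wnt signals were abundant in the same cells. Of 16 listed, 10 passed the filter, 9 were higher by 1 or more and none was lower. The median was 1.87 over all 16, and 3.93 over the 10 that passed, against -0.41 for all genes considered. Besides Wif1 and Sostdc1 these were Sfrp1, a secreted frizzled-related protein, at plate means of 217.4 to 270.1 TPM and a log2 difference of 6.42, and Dkk2, which binds Lrp co-receptors, at 123.02 to 155.3 TPM and 5.66. Frzb was at a mean of 33.7 TPM, and Notum, an enzyme that removes the lipid of Wnts, at 96.3 TPM against 7.04 in hair bulb cells. Dkk1, often studied in hair, was listed at 0 in every kept cell of both groups.

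Genes that Wnt/β-catenin signalling induces were on in both groups. Of 12 in that list, 10 passed the filter. In dermal papilla cells 6 of these (60%) were higher by 1 or more and 2 (20%) lower. The share lower was near that of all genes considered (23.4%), and the median over all 12 was 0.81. Axin2, the standard readout, had a mean of 46.9 TPM (plates 42 to 49.5) against 16.6 TPM (plates 13.9 to 20.3). Apcdd1 was at 168.2 against 18.3 TPM and Nkd1 at 27.4 against 2.26. Rnf43, which removes Wnt receptors and is itself blocked by R-spondins, was named after its values were seen: it was in 0.658% of dermal papilla cells and 77% of hair bulb cells, at means of 0.0760 and 13.4 TPM. Lef1, part of the sort through its reporter, was seen in 92.1% of dermal papilla cells and was about as high in the hair bulb, at means of 60.3 and 67.3 TPM.

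Among ligands of the transforming growth factor β family, Inhba was followed by BMPs. Of 19 such genes, 10 passed the filter, 8 were higher by 1 or more and none lower. The median over all 19 was 0.64. Bmp7 had plate means of 91.8 to 103.6 TPM against 6.996 to 10.3 in the hair bulb, Bmp4 54.5 to 77.2 against 3.40 to 5.68, and Bmp3, which antagonises other BMPs, 56.1 to 67.4 against 0.0281 to 0.719. None of these plate ranges overlapped between groups. Gdf10 was at a mean of 39.5 TPM against 0.445. Bmp2 did not follow them: it was seen in 64.1% and 60.2% of cells, with a log2 difference of 0.66.

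Inhibitors of these ligands stood beside them. Of 14, 9 passed the filter, 8 of them (88.9%) were higher by 1 or more and 1 (11.1%) lower. The median over all 14 was 1.19. Fstl1 was seen in every dermal papilla cell, from 35.9 TPM in the lowest through a median of 284.6 to 1357 TPM, against a hair bulb mean of 30.9. Nbl1 was at 113.04 against 10.6 TPM. Nog (noggin), a well-known BMP inhibitor of the dermal papilla, was named after its values were seen and reached a mean of 7.40 TPM, in 34.9% of the cells.

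Genes that BMP signalling induces were not higher: of 9, 7 passed the filter, none was higher by 1 or more and 3 (42.9%) were lower. The median was -0.37 over all 9 and also over the 7 that passed, close to -0.41 for all genes considered. Id3 was similar in both groups, in 86.8% and 88.1% of cells. Msx2, Msx1 and Id1 were lower, with log2 differences of -3.28, -2.96 and -2.46.

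Fgf7 and Fgf10, both ligands of the epithelial form of Fgfr2, were the FGFs of these cells. Fgf7 had plate means of 150.2 to 181.6 TPM and Fgf10 of 60.6 to 67.5 TPM, while the hair bulb plates reached at most 1.32 and 0.0139 TPM. Of 12 FGF genes, 4 passed the filter, 3 were higher by 1 or more and none lower, and the median of all 12 was 0.11. Fgf11 was the third. In a list of 41 other growth factors, 12 passed the filter, 6 of them (50%) were higher and 4 (33.3%) lower. The median over all 41 was -0.01. The higher ones included Mdk (midkine) at 108.05 against 1.28 TPM, the neuregulin gene Nrg2 at 68.9 against 0.245 and the endothelin gene Edn3, which acts on melanocytes, at 69.5 against 6.197. Kitl, the ligand of the melanocyte receptor Kit, was the lowest: it was seen in 6.25% of dermal papilla cells at a mean of 1.01 TPM and in 79.4% of hair bulb cells at 206.3 TPM.

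**Figure D4:**
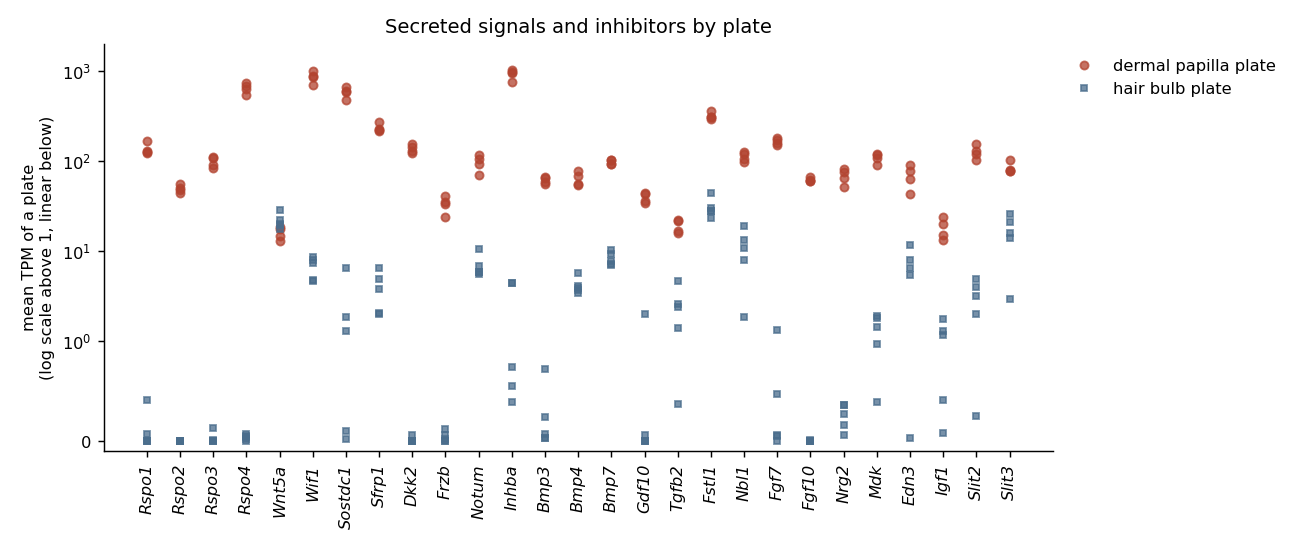
Mean TPM of secreted signals and inhibitors on each of the 4 dermal papilla plates (red circles) and 5 hair bulb plates (blue squares); the axis is logarithmic above 1 TPM and linear below. The dermal papilla plates lie above every hair bulb plate for all genes drawn except Wnt5a, whose plates overlap. The genes were picked for the drawing, which leaves out signals that were lower in dermal papilla cells, such as Wnt3, Wnt4, Wnt10a and Kitl.

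In a list of 40 genes known from earlier work on the dermal papilla, 31 passed the filter, 29 of them were higher by 1 or more and none lower. The median over all 40 was 2.79. The highest of those not yet described were Vcan (versican, a hyaluronan-binding proteoglycan long used as a dermal papilla marker) at a mean of 182.8 TPM, the neural cell adhesion molecule Ncam1 at 74.2, and Scube3, a secreted signalling protein, at 84.3 TPM. Other well-known members, named after their values were seen, were seen in a minority of these cells: Sox2 in 20.1% at a mean of 2.76 TPM, Bmp6 in 26.3% and Hgf in 0.987%. Igf1 was seen in 47.7%, against 5.54% of hair bulb cells, with a log2 difference of 1.88.

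Of 63 receptor genes, 53 passed the filter, 22 of them (41.5%) were higher by 1 or more and 11 (20.8%) lower, where 12.8% and 23.4% of all genes considered were. The share lower was thus near that of all genes, and the median over all 63 was 0.00. Fgfr1 was seen in every dermal papilla cell at plate means of 141.8 to 171.5 TPM, against 7.76 to 33.04 in the hair bulb. Lepr had a mean of 67.8 TPM and was seen in 93.8% of cells against 1.85%. The Wnt receptor Fzd1 was at 75.9 against 14.1 TPM. The endothelin receptor Ednrb and the R-spondin receptor Lgr4 were seen in 77% and 83.9%. Egfr was lower, at 11.6 against 55.2 TPM.

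Of 22 pairs with the ligand read in dermal papilla cells and the receptor in hair bulb cells, 10 had both in at least 30% of the cells of their group. Fgf7 and Fgf10 (96.4% and 89.5% of dermal papilla cells) met Fgfr2 in 87.3% of hair bulb cells. Inhba met Acvr2a in 61.7% and Acvr1b in 82.1%, Bmp4 met Bmpr1a in 95.3%, and Rspo3 and Rspo4 met Lgr4 in 52.8%. Igf1 with Igf1r, Wnt5a with Ror2 and Jag1 with Notch1 were the others. Fgfr2, Lgr4, Igf1r, Ror2 and Notch1 were no less frequent in the dermal papilla cells themselves, at 96.4%, 83.9%, 91.1%, 77.3% and 64.5%. Bmpr1a, Acvr2a and Acvr1b were less frequent there, at 70.7%, 38.8% and 35.5%. Lgr5 and Lgr6, the other R-spondin receptors, were seen in 14.5% and 10% of hair bulb cells. The list paired Rspo1 and Rspo2 only with Lgr5, so they were not read against Lgr4, and the count of 10 depends on the pairs listed.

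In the reverse direction, 7 of 17 pairs met the same mark. Pdgfa, a ligand of Pdgfra, was seen in 45.9% of hair bulb cells. Wnt3 and Wnt10a met Fzd1 in 97.7% of dermal papilla cells, Jag1 and Jag2 met Notch2 in 88.8%, Bmp2 met Bmpr1a in 70.7% and Pthlh met its receptor Pth1r in 38.5%. Of these ligands, Bmp2 and Jag1 were also seen in 64.1% and 63.5% of the dermal papilla cells themselves. Shh was seen in 5.01% of hair bulb cells, so pairs with Ptch1 (70.4% of dermal papilla cells) did not pass. Of 4 hedgehog response genes, Hhip was higher by 1 or more, at 146.8 against 0.0837 TPM, 1 was lower by 1 or more, and the median was 0.18. These counts say only that both transcripts were present.

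Matrix genes were described in 6 lists, each of which holds at most 4 of the 66 core genes. All 11 fibrillar collagen genes were measured. Of these, 6 passed the filter and those 6 were higher by 1 or more, with a median of 1.23 over all 11. Col3a1, Col1a1, Col1a2, Col5a1 and Col5a3 passed only through the dermal papilla cells, so their direction was largely set by the filter. Col1a1 had plate means of 207.2 to 405 TPM, a median cell of 198.355 TPM and a single cell of 16687 TPM, against hair bulb means of 5.17 to 16.5. Of 25 other collagens, 11 passed the filter, 9 of them (81.8%) were higher and 1 (9.09%) lower. The median over all 25 was 0.38. Col6a3 and Col15a1 led at plate means of 581 to 655 and 177.4 to 208.1 TPM. Col17a1, the collagen of epithelial hemidesmosomes, was the lower one, at a log2 difference of -2.79.

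The laminin chains split between the 2 groups. Lama2, Lama4 and Lamc3, chains of mesenchymal basement membranes, had plate means of 185.889 to 223.995, 53.9 to 73.3 and 72.6 to 116.02 TPM in dermal papilla cells, against at most 11.5, 5.58 and 3.68 TPM on a hair bulb plate. Lamb2 and Lamb1 were also higher, by 4.54 and 2.47 on the log2 scale. Lamc1, the γ chain shared by many laminins, was seen in 97.4% and 97.1% of cells at means of 29.3 and 27.2 TPM, and its plates overlapped. The epithelial chains, named after their values were seen, were nearly missing from the dermal papilla cells. Lama5 was seen in 4.61% of them and 95.3% of hair bulb cells, at means of 0.394 and 39.4 TPM, and Lama3 in 0.658% and 74.7%. The log2 difference of Lamb3 was -1.17. Type IV collagen went with the mesenchymal chains: Col4a1 and Col4a2 were seen in 100% and 99.7% of dermal papilla cells at means of 99.98 and 122.3 TPM. Of the 26 basement membrane genes, 21 passed the filter, 9 of them (42.9%) were higher and 7 (33.3%) lower. The median over all 26 was 0.03.

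Of 35 adhesion genes, 23 passed the filter, 10 of them (43.5%) were higher by 1 or more and 7 (30.4%) lower, beside 12.8% and 23.4% of all genes considered, with a median of 0.43 over all 35. Cdh11, the mesenchymal cadherin, was seen in 99.3% of dermal papilla cells and 1.58% of hair bulb cells, at means of 79.5 and 0.945 TPM. Cdh3 (P-cadherin, a protein in the hair bulb sort) and Itga3, which pairs with integrin β1 as a laminin receptor, were lower, with log2 differences of -4.35 and -4.37. Cdh3 was named after its values were seen. Itgb1, the integrin β1 chain and part of the hair bulb sort, was on in nearly all cells of both groups. Itga9 was seen in 93.4% of dermal papilla cells, which is not a finding because it was part of the sort.

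**Figure D5:**
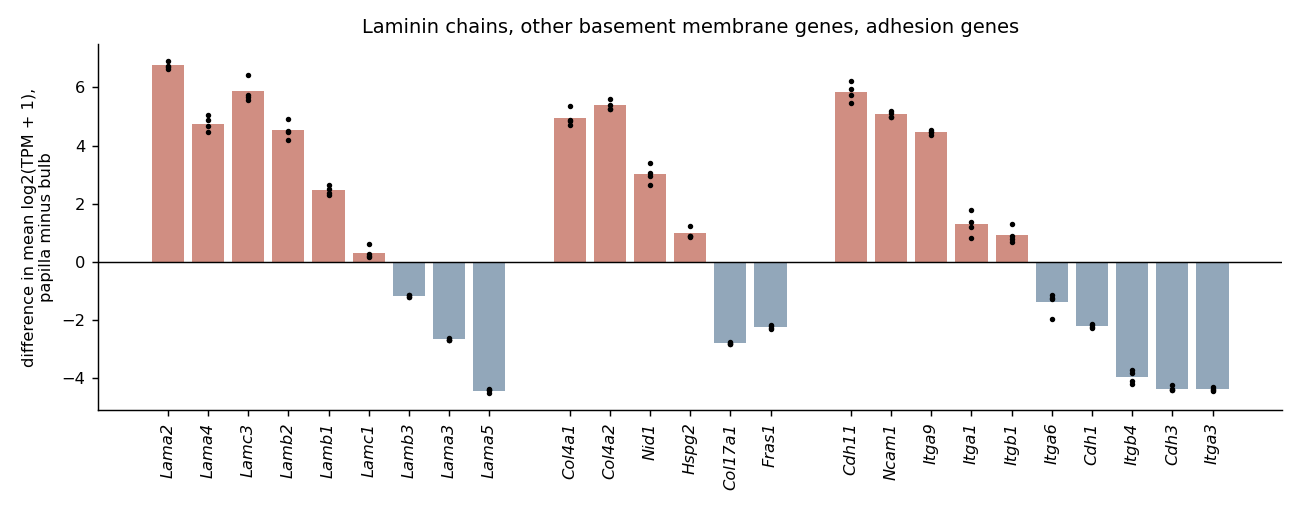
Difference in mean log2(TPM + 1), dermal papilla minus hair bulb, for laminin chains (left), other basement membrane genes (middle) and adhesion genes (right); bars give all kept cells and black points each dermal papilla plate against all hair bulb cells. Lama2, Lama4, Lamc3 and Cdh11 lie above 0 and Lama5, Itga3 and Cdh3 below it on all 4 plates.

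Matrix glycoproteins and remodelling enzymes were mostly higher. Of 46 glycoproteins, 28 passed the filter, 23 of them (82.1%) were higher by 1 or more and 1 (3.57%) lower. The median over all 46 was 1.18. Sparc, which binds collagen, had plate means of 791 to 905 TPM, Igfbp7 of 729 to 853 TPM, and the fibrillin partner Mfap2 a mean of 107.9 TPM. The lower one was Fn1 (fibronectin), at 16.8 against 30.3 TPM, with a log2 difference of -1.20. Of 45 remodelling genes, 32 passed the filter, 26 of them (81.25%) were higher and 2 (6.25%) lower. The median over all 45 was 1.44, and the higher ones were led by Serpine2, Mmp2, Pcolce and Serpinf1. Of 33 proteoglycan genes, 15 passed the filter, 8 of them (53.3%) were higher and 2 (13.3%) lower. The median over all 33 was 0.07. Vcan and Bgn (biglycan) were at means of 182.8 and 378.9 TPM.

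Of 47 guidance genes, known from growing axons, 31 passed the filter, 13 of them (41.9%) were higher and 10 (32.3%) lower, beside 12.8% and 23.4% of all genes considered, with a median of 0.20 over all 47. The ligands Slit2 and Slit3 were at means of 128.2 and 85.5 TPM, their receptors Robo1 and Robo2 at 23.3 and 23.7 TPM, and Unc5c at 60.05 TPM. Of 24 hormone and prostanoid genes, 14 passed the filter, 9 of them (64.3%) were higher and 3 (21.4%) lower. The share lower was near that of all genes, and the median over all 24 was 0.01. Besides Corin the higher ones included Ptger3, seen in 96.7% of dermal papilla cells at a mean of 118.6 TPM, and the glucocorticoid receptor Nr3c1 at 40.6 TPM. In the retinoid list of 19, 14 passed the filter, 6 of them (42.9%) were higher and 3 (21.4%) lower. The share lower was again near that of all genes, and the median over all 19 was -0.002. The binding proteins Crabp1 and Crabp2 were high in dermal papilla cells. Stra6, the retinol importer, and Aldh1a3, which makes retinoic acid, were high in hair bulb cells, at 163.9 and 92.01 TPM against 3.08 and 2.05.

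Of 49 transcription factors of mesenchyme, 29 passed the filter, 16 of them (55.2%) were higher by 1 or more and 7 (24.1%) lower. The share lower was near that of all genes considered (23.4%), and the median over all 49 was 0.37. Prrx1, a homeobox factor of limb and skin mesenchyme, had plate means of 64.1 to 81.6 TPM and was seen in 99.7% of cells, against 13.5% of hair bulb cells. Zeb2 was at a mean of 138.3 TPM, Alx4 at 63.5, Ebf1 at 53.4 and Trps1 at 74.5. Shox2, a core gene outside that list, was at 65 TPM and was seen in 92.4% against 4.22%.

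Epithelial and cell-cycle genes were low. The sorts used a keratin 14 reporter and P-cadherin, so the epithelial counts are tied to the gates and are a description. Of 26 hair epithelium genes, 23 passed the filter, none was higher and 22 (95.7%) were lower by 1 or more. The median over all 26 was -2.88. Krt17, a keratin of the follicle, had the lowest log2 difference of all, -6.35, and was seen in 7.89% of dermal papilla cells at a mean of 1.28 TPM, against 89.4% and 241.3 TPM. The other 9 of the 10 lowest were Ucp2, Sfn, S100a14, Perp, Trim29, Gpnmb, Gjb2, Tns4 and Fabp5, with log2 differences of -6.23 to -5.38. Gpnmb is a pigment cell gene and most of the others are epithelial. Their plate means in dermal papilla cells were small but uneven: Gjb2 was at 0.254 TPM on plate DP6 and 5.34 on DP5. Of 15 genes of the G2 and M phases, 14 passed the filter and those 14 were lower by 1 or more. The median over all 15 was -1.75. Top2a was seen in 2.96% of dermal papilla cells and 57% of hair bulb cells, and Mki67 in 4.61% and 54.4%. Of 15 genes linked with quiescence, 13 passed the filter, 4 of them (30.8%) were higher by 1 or more and 3 (23.1%) lower. The share lower was near that of all genes considered (23.4%), and the median over all 15 was -0.04. The higher ones were led by Txnip, Gas1 and Foxo3.

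Within the dermal papilla cells, some of the most abundant genes were either high or listed near 0. Corin was under TPM 1 in 25 cells, Rspo4 in 24 and Chodl in 25, while the other cells had medians of 627, 652 and 275.97 TPM and few cells lay between 1 and 10 TPM (5, 0 and 1). These were in part the same cells. Both Corin and Rspo4 were under 1 in 16 cells, which is 64% of the cells without Corin and 66.7% of those without Rspo4. Rspo4 and Chodl shared 16 cells, and 23 of the 24 cells without Rspo4 (95.8%) also lacked Rspo3, against 21.4% of all dermal papilla cells. Dkk2 went another way: of the 25 cells without Corin, 4 (16%) lacked Dkk2, against 16.8% of all.

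The 16 cells without Corin and Rspo4 lay on all 4 plates (3, 6, 2 and 5 cells). Each of them carried Pdgfra, Apod, Enpp2, Col6a3 and Mmp2, while 12 carried Inhba, 12 Sostdc1 and 14 Wif1. They held a median of 46 core genes, with a range of 32 to 59. Of these 16 cells, 8 carried at least 3 of 9 markers of dermal sheath and smooth muscle, out of 14 such cells among all the dermal papilla cells. At least 3 of 12 interfollicular fibroblast genes were on in 14 of the 16, and in 74.3% of all dermal papilla cells. A DP2 cell with 34 core genes carried 10 of those 12, and a DP6 cell with 32 core genes carried 11. Each of these cells carried 1 dermal papilla marker, Pdgfra. The 16 cells held a median of 5379.5 genes against 5907 in the other dermal papilla cells, and the part of gene number in these absences was not tested. Whether the 16 cells are another cell type was not tested. Without the 58 cells that carried 3 or more markers of some other type, the interfollicular fibroblast list set aside, 80.9% of the cells remained and the number of core genes was again 66. With that list set aside, this count does not bear on cells with interfollicular fibroblast genes.

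Other genes varied more widely. By the SD of log2(TPM + 1) over cells, among genes seen in 50 to 90% of them and leaving out predicted models, the 10 most variable were Mir6236, Slc26a7, Penk, Crip1, Cyr61, Rps12, Igfbp5, Edn3, Igfbp3 and Gpx3. Slc26a7, an anion exchanger, had a mean of 463 TPM but was under 1 in 61 cells. Penk (proenkephalin, the precursor of opioid peptides) was seen in 63.8% of cells at plate means of 56.6 to 131.8 TPM and was listed at 0 in every hair bulb cell. Edn3 was seen in 53.3%, with a highest cell of 1901 TPM. Cyr61, an early-response gene, had the largest ratio of plate means among these 10, at 30.1 TPM on DP2 and 204.1 on DP3. Rps12, a ribosomal protein gene with many near-identical copies, and the microRNA gene Mir6236 are uncertain, since the authors' counting could split their reads.

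Markers of other cell types differed by list. The summed level of 10 muscle progenitor genes had a median of 256.7 TPM in dermal papilla cells (plate medians 211.4 to 307.8) against 0 in hair bulb cells. Chodl, the gene of that list described above, was the single member that passed the filter, 5 members were listed at 0 in every dermal papilla cell, and no cell carried 3 or more. The summed level of 10 keratinocyte genes had a median of 2.76 TPM in dermal papilla cells (plate medians 1.59 to 4.96) against 675 in hair bulb cells, and 19 dermal papilla cells carried 3 or more of them, at most 10. The medians of the sums of dermal sheath, endothelial, immune and Schwann cell genes were 0 on every plate. Immune genes reached 5558 TPM in 1 cell, and 5 cells carried 3 or more of them. Melanocyte genes had a median sum of 5.01 TPM against 44.7, and 25 cells carried 3 or more, at most 4. Of 12 interfollicular fibroblast genes, 3 or more were on in 74.3% of dermal papilla cells, and their sum had a median of 108.9 TPM against 19.4. No group of the series is labelled as interfollicular fibroblasts, so whether that list parts the 2 kinds of fibroblast was not tested. Among the hair bulb cells, most carried 3 or more melanocyte genes. Only 36.1% carried 3 or more keratinocyte and under 3 melanocyte genes. Dermal sheath, Schwann cell and pericyte genes reached 3 or more in 48, 36 and 34 hair bulb cells. Interfollicular fibroblast genes did so in more hair bulb cells than each of these lists. Whether such hair bulb cells are another cell type was not tested. No doublet caller was run, and the part of such cells in the results was not tested beyond the counts without them.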

How the data were processed

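Single-cell RNA was measured by Smart-seq2 on a NextSeq instrument, per the labels' protocols. The authors deposited TPM values per gene and cell in separate tables for the dermal papilla and hair bulb cells, normalized separately. The submitters' processing notes name Bowtie2 2.2.9, RSEM 1.2.30 and build mm10. The dermal papilla table parts its fields by a slash and the letter t, and was read so. After the cell filter, 304 of 337 dermal papilla and 379 of 384 hair bulb cells were kept. No identical columns were found among the 1119 cells, and 0 columns were unmatched to a labelled sample.

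Rows for spike-in, ribosomal and mitochondrial RNA were left out of gene comparisons. Differences are of mean log2(TPM + 1), a pseudocount of 1, between cells with at least 2000 genes at TPM 1 or more, over genes seen in at least 30% of either group. Computation used Python 3.11.15 with numpy and pandas, and the summaries were tested on simulated data. Intervals of shares are exact Clopper-Pearson at 95%. Gene positions and biotypes came from GENCODE, promoters from RefSeq on GRCm38.p6, the assembly also called mm10.

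Genes were named by rule: the 7 markers, the 20 largest positive and 10 largest negative differences with the same sign on every plate and without predicted models and pseudogenes, the 15 highest core genes, in each list the members seen in 50% of dermal papilla cells or the 4 largest differences, the 10 most variable genes and the pairs with both partners in 30%. Exceptions are stated where they occur. The cells, lists and rules were chosen with earlier results of these data known. Alternatives changed 1 choice at a time: cell and gene filters, scaling, pseudocount, each plate left out, and cells with markers of another type. Results for a few list members are not reported here.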

Additional observations from a re-analysis of the deposited data

Results flagged for a closer look

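The hair follicle cells of postnatal days 21 to 27 were not part of the comparison. In them, 4 of the 66 core genes reached TPM 1 in 50% or more of some group, above their share of hair bulb cells. Sostdc1 was in 74.4% of the P21_b cells, 66.2% of the P23-P24_hg cells, 50% of the P25-P27_hg cells and 55.6% of the P25-P27_mat cells. Mfap2 was in 82.4% of P21_hg, 50% of P23-P24_hg and 50% of P25-P27_mat cells. Prlr was in 84.6% and Cacna1c in 51.3% of P21_b cells. The group names are those of the labels, each group is 1 sample, and these cells come from another strain, so no difference was tested. The median cell of these groups carried 3 to 5 core genes, and 1 P25-P27_mat cell carried 50.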

How the results depend on the processing

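The main counts were 1347 genes higher, 2461 lower and 66 core genes. Without a cell filter, which adds the 33 near-empty wells, 22 core genes were left. Asking for 90% of each plate gave 32. Rescaling without spike-in, ribosomal and mitochondrial rows gave 4653 lower genes, a pseudocount of 0.1 gave 5092, the ratio of mean TPM gave 1490 and centring on the median gene 1307. A pseudocount of 10 gave 533 higher and 390 lower, and a limit of 2 in place of 1 gave 588 and 512. Leaving out each plate in turn gave 1306 to 1386 higher genes, 2306 to 2569 lower and 57 to 69 core genes. Dropping cells with 3 or more markers of another type left 63 cells, since the interfollicular fibroblast list removes most, and gave 51 core genes. Setting that list aside, an alternative chosen after seeing the data, gave 66. Against only the 36.1% of hair bulb cells with 3 or more keratinocyte and under 3 melanocyte markers, also chosen after seeing the data, the signs of Fgfr3 (-0.24) and Tyrp1 (0.029) turned. The number of core genes in that setting was 75. All other named genes past 1, and all 11 lists whose median was past 1, kept their sign under all 20 settings. For 75 of those genes and 7 of the lists the difference was under 1 in some setting. No paired analysis was possible because no comparison comes from a test and plates carry no shared numbers between groups. With 1 sample a group and TPM without read numbers, variation between mice and counting error cannot be given.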
